A study of Mus musculus with 4 samples.

Results

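The genes described here are 39 interferon-stimulated genes, a list of named members of the response to type I interferons and to interferon-γ, read in 4 RNA-seq libraries of intestinal intraepithelial lymphocytes (IELs). The list was taken as given, by gene symbol, and each symbol was matched to the Entrez identifier the files use. Of the 39 genes, 37 were found among the 19339 genes of the files, and 36 of these reached at least 1 FPKM in at least 2 libraries, as did 12009 genes in all. FPKM is scaled to gene length as well as library size, so levels of different genes can be set side by side. Mx1 and Mx2, the myxovirus resistance GTPases, are not analysed here, and Ifi44 lay under the limit of 1 FPKM at 0.28 and 0.50 FPKM in control mice and at 0.40 and 0.52 FPKM in mice labelled Kdm6b-deficient.

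The study asked how Kdm6b, a demethylase that removes methyl groups from lysine 27 of histone H3, shapes unconventional T cells of the gut. TCRαβ+CD8αα+ IELs were sorted from the small intestine of C57BL/6 mice as CD45+CD4-TCRβ+CD8α+CD8β- cells. All mice carried Kdm6b alleles flanked by loxP sites (Kdm6bF/F). The control mice had no further change, and the Kdm6b-deficient mice (Kdm6bF/F-CD4Cre) also carried a Cre transgene under the CD4 promoter, which acts from a late double-negative thymocyte stage and thus in T cells rather than in the whole animal. Each library held RNA pooled from 3 mice of the same genotype, and 2 libraries of each genotype, numbered 1 and 3, were used. Ages are not given in the sources used here. Because each library is a pool, the spread between libraries is a spread between pools of 3 mice.

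Type I interferons bind the receptor chains IFNAR1 and IFNAR2, and the kinases JAK1 and TYK2 then start a signal in which STAT2 and IRF9 take part and which acts through the interferon-stimulated response element (ISRE). Interferon-γ binds IFNGR1 and IFNGR2, and its signal acts through the gamma-activated sequence (GAS). IELs lie between the epithelial cells of the gut, and activated T cells are a known source of interferon-γ. The genes switched on by these routes include sensors of viral RNA and DNA, transcription factors that carry the response further, antiviral effectors and GTPases that act on vacuoles holding pathogens.

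The promoters of the list carry the letters of both elements. RefSeq promoter sequences (GRCm38.p6, 250 bases before to 50 bases after the start) were given for 31 of the 39 genes. They were searched on both strands for GAAA followed after any 2 bases by a further GAAA, the core of the ISRE, and for TTCNNNGAA, the core of the GAS, which reads the same on either strand. The ISRE core was present in 17 of the 31 genes (54.8%) and in 3.99% of all 27025 genes with a promoter sequence. The GAS core was present in 12 of the 31 genes (38.7%) and in 9.55% of all genes. Matches of the ISRE core to each other overlap where the repeat runs on, as in Isg15 with 3 matches from 78 to 66 bases upstream of the start. The stretches around the matches are shown for the 6 genes with the highest mean FPKM among those with a match upstream of the start, in the direction of transcription, because they show both elements in the promoters of genes that these cells express at high levels. Capitals mark the matches to either core.
Irf1 promoter, chr11:53769909-53769947, plus strand: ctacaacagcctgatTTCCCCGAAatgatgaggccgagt
Irf8 promoter, chr8:120736172-120736228, plus strand: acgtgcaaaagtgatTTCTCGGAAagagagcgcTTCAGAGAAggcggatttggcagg
Igtp promoter, chr11:58199496-58199546, plus strand: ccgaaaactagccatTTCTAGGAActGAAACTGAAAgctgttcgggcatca
Irgm1 promoter, chr11:48871421-48871465, minus strand: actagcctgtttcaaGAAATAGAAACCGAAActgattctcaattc
Bst2 promoter, chr8:71537572-71537623, minus strand: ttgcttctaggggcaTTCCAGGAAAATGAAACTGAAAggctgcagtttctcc
Samhd1 promoter, chr2:157135308-157135346, minus strand: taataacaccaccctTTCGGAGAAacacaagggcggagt

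Irf1, Irf8 and Samhd1 hold only the GAS core in this window, Irgm1 holds 2 overlapping ISRE cores, and Igtp and Bst2 hold both elements. In all, 6 genes held both (Bst2, Eif2ak2, Gbp7, Igtp, Irgm2 and Oas1a). In Igtp and in nearby Irgm2 the GAS core began 11 bases before the ISRE core. A match is a string of letters and not a measured binding site, and a gene with no match here may hold the element outside the window or in another spelling.

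**Figure D1:**
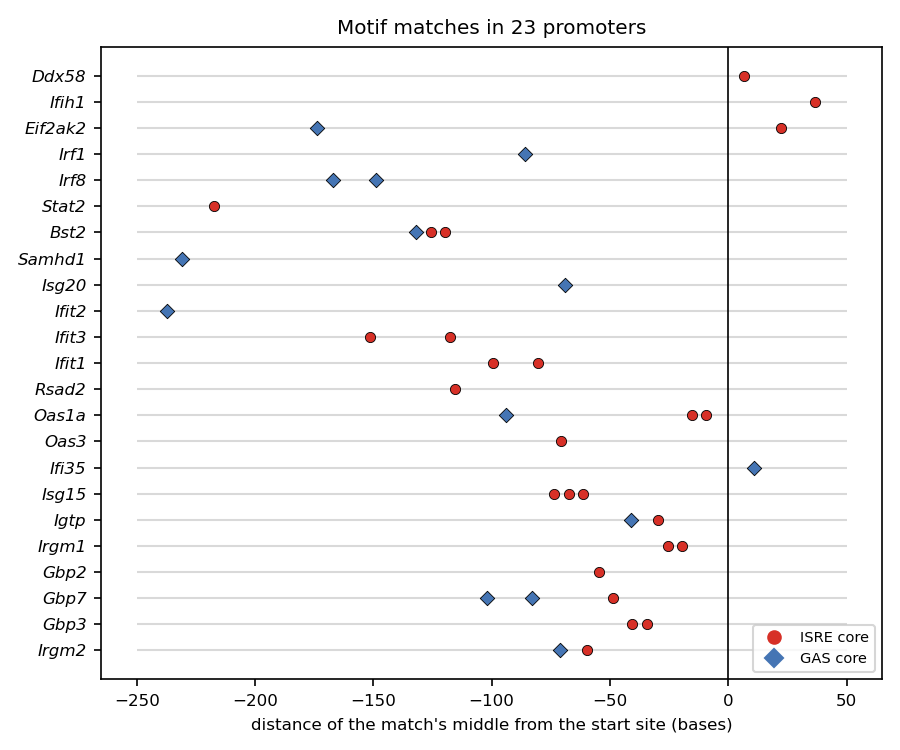
Positions of the ISRE core (red circles) and the GAS core (blue diamonds) in the promoters of the 23 genes with a match, one gene to a line, by distance of the middle of the match from the start site in bases. Grey lines span the 300 bases searched, the vertical line is the start site, and all matches of the GTPase genes begin within 106 bases upstream of it.

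Across the series, FPKM totals lay between 578491 and 646671. Total reads are unknown, and the value of a single fragment, read from low FPKM of short genes with a single transcript, gave relative depths of 0.86 to 1.02 with the library labelled Kdm6b-deficient 3 the shallowest. The genes of the sorted cell, such as Cd3e (304 to 505 FPKM) and Cd8a (280.5 to 463 FPKM), were high in every library. Kdm6b itself was at 16.5 and 16.01 FPKM in control 1 and 3. It was at 18.2 FPKM in the library labelled Kdm6b-deficient 1 and at 11.1 FPKM in Kdm6b-deficient 3. Its level was thus above both controls in one of the libraries labelled deficient, and a gene-level value does not show whether the floxed part is missing. For that reason the libraries are named by their labels throughout, as deficient-labelled 1 and 3, and each direction rests on the labels.

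No interferon-stimulated gene passed the test of a difference between genotypes. The test was limma on log2(FPKM + 1), fitted on all 12009 genes, and the smallest adjusted p among the 36 genes was 0.755. Over all genes the same test called 0%, so the count of 0 among the listed genes stands against a count of 0 in the whole table. At an unadjusted p under 0.05, 0 of the 36 genes and 642 of the 12009 genes (5.35%) passed. With 2 libraries a group an exact permutation test cannot go below p = 0.333. The median difference of the 36 genes, deficient-labelled minus control, was −0.02 on the log2 scale, beside 0.00 over all genes, with 17 genes above 0 and 19 below. Differences ran from −0.55 in Irgm2 to 0.71 in Oasl2, on the log2(FPKM + 1) scale, which understates the change of low genes.

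Counted without a test, both deficient-labelled libraries lay below both controls in 5 of the 36 genes, beside 18.6% of all genes. These were Irf1, Irf7, Stat2, Bst2 and Irgm2. Both lay above both controls in 4 of the 36 genes, beside 18.4% of all genes, and these were Eif2ak2, Ifit2, Oas1a and Oasl2. In the other 27 genes the groups overlapped. A difference of more than 1 in either direction on the log2 scale, the limit that the study used, was reached by 0 of the 36 genes and by 6.64% of all genes (797 genes, and 1381 with a pseudocount of 0.1).

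**Figure D2:**
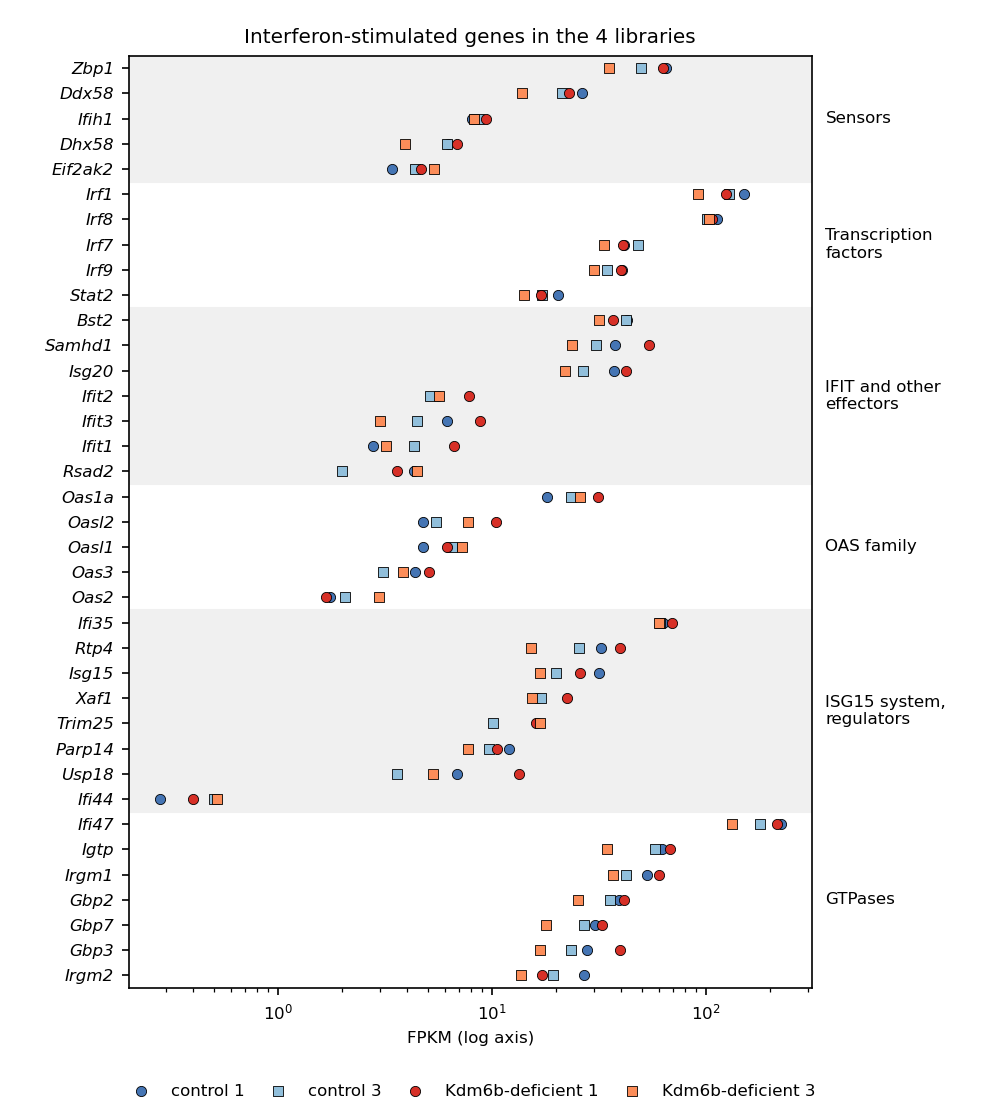
FPKM on a log axis of the 37 interferon-stimulated genes in each of the 4 libraries, grouped by role and ordered by mean level, with controls in blue and libraries labelled Kdm6b-deficient in red and orange. The genes span levels from under 1 FPKM (Ifi44) to 223 FPKM (Ifi47), and the groups overlap in 27 of the 36 genes that passed the filter.

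The sensors of foreign nucleic acid were expressed at levels from 3.41 to 65.1 FPKM. Zbp1, a sensor of Z-form nucleic acid that can start cell death, was the highest of them, with 65.1 and 49.9 FPKM in control 1 and 3 and 62.7 and 35.2 FPKM in deficient-labelled 1 and 3. The high values were those of replicate 1 of each genotype, and the groups overlapped. Ddx58, which encodes the RNA sensor RIG-I, was at 26.3 and 21.2 FPKM in the controls and at 22.8 and 13.9 FPKM in deficient-labelled 1 and 3. Deficient-labelled 3 stood low and deficient-labelled 1 lay between the controls, for a log2 difference of −0.39 (SE 0.30, limma adjusted p = 0.777). Scaling the libraries to T cell genes moved the median of all genes up by 0.38. Under it the Ddx58 difference was 0.01, and −0.37 relative to that shift. With the epithelial marker level as a covariate the difference was 0.05.

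Ifih1, which encodes the long double-stranded RNA sensor MDA5, was close to level at 8.09 and 8.65 FPKM in the controls and 9.33 and 8.24 FPKM in deficient-labelled 1 and 3. Eif2ak2 encodes PKR, a kinase that halts translation when it binds double-stranded RNA. It was at 3.41 and 4.35 FPKM in the controls and at 4.68 and 5.37 FPKM in deficient-labelled 1 and 3, and was the one sensor whose groups did not overlap (log2 difference 0.31, SE 0.30, limma adjusted p = 0.815). Dhx58, which encodes the related helicase LGP2, ranged from 3.91 to 6.88 FPKM, with both extremes in the deficient-labelled libraries.

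The 5 transcription factors all had log2 differences below 0, with a median of −0.26. Irf1, a target of interferon-γ that drives much of the later response, was at 150.2 and 129 FPKM in control 1 and 3 and at 123 and 91.8 FPKM in deficient-labelled 1 and 3. Both deficient-labelled values were below both controls, though deficient-labelled 1 and control 3 lay close together. The log2 difference was −0.38 with a 95% interval of −0.92 to 0.15 (limma adjusted p = 0.755). Irf8, a factor best known from myeloid cells and also induced by interferon-γ, was the most even gene of the group at 112 and 101 FPKM in the controls and 107 and 103 FPKM in deficient-labelled 1 and 3. Its log2 difference was −0.02 with an interval of −0.44 to 0.40, the narrowest of the 36 genes.

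Irf7, which drives production of type I interferon, was at 41.6 and 48.2 FPKM in the controls and at 41.1 and 33.2 FPKM in deficient-labelled 1 and 3. The groups did not overlap, but control 1 and deficient-labelled 1 were almost equal. Stat2, a carrier of the type I signal, was at 20.4 and 17.1 FPKM in the controls and at 17.0 and 14.1 FPKM in deficient-labelled 1 and 3. Here too the gap between the groups rested on nearly equal values, those of control 3 and deficient-labelled 1. Irf9, which binds DNA together with STAT2, ranged from 30.1 to 40.6 FPKM with groups that overlapped. With the control 1 library left out 3 of the 5 differences stayed below 0, with deficient-labelled 3 left out also 3 of 5, and with the epithelial marker level as a covariate also 3 of 5. With the libraries scaled to T cell genes, which moved the median of all genes up by 0.38, 0 of the 5 stayed below 0, and 4 of 5 did relative to that shift.

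Among the antiviral effectors, the highest levels were those of Bst2, Samhd1 and Isg20. Bst2 encodes tetherin, which holds budding viruses at the cell surface. It was at 42.9 and 42.3 FPKM in the controls and at 36.8 and 31.6 FPKM in deficient-labelled 1 and 3, so the controls were alike and both deficient-labelled libraries lay lower (log2 difference −0.31, SE 0.18, limma adjusted p = 0.757). With the libraries scaled to T cell genes the difference was 0.10, and −0.28 relative to the shift of all genes. Samhd1, an enzyme that depletes the nucleotides viruses need, was at 37.6 and 30.6 FPKM in the controls and at 54.0 and 23.7 FPKM in deficient-labelled 1 and 3. Isg20, an exonuclease that degrades RNA, showed the same order of libraries, with 37.02 and 26.7 FPKM in the controls and 42.2 and 21.9 FPKM in deficient-labelled 1 and 3. For both genes the deficient-labelled libraries were the highest and the lowest of the 4.

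Ifit1, Ifit2 and Ifit3, whose products bind viral RNA and block its translation, lie in a stretch of chromosome 19 (GRCm38.p6, 34550550 to 34650009) and were all under 10 FPKM. Ifit2 was at 5.57 and 5.15 FPKM in the controls and at 7.80 and 5.64 FPKM in deficient-labelled 1 and 3. The groups did not overlap, but deficient-labelled 3 and control 1 were nearly equal, and the log2 difference was 0.27 (SE 0.30). Ifit1 and Ifit3 overlapped between groups, and each was highest in deficient-labelled 1. They have close copies, Ifit1bl1 and Ifit3b, which were at up to 13.4 and 1.73 FPKM, so the split of fragments between copies is uncertain. Rsad2, which encodes viperin, ranged from 2.0 to 4.45 FPKM and overlapped as well.

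The 2′-5′ oligoadenylate synthetases, which make the signal that activates RNase L, all had log2 differences above 0, with a median of 0.23. Oas1a was at 18.0 and 23.4 FPKM in control 1 and 3 and at 31.2 and 25.8 FPKM in deficient-labelled 1 and 3. Oasl2 showed the widest gap of the whole list, with 4.75 and 5.46 FPKM in the controls and 10.4 and 7.68 FPKM in deficient-labelled 1 and 3. In both genes the controls lay below both deficient-labelled libraries. The log2 difference of Oasl2 was 0.71 with an interval of −0.02 to 1.44 and that of Oas1a was 0.45 with an interval of −0.13 to 1.03 (limma adjusted p = 0.755 for each).

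Oasl1, a regulator of Irf7 translation, was at 4.75 and 6.53 FPKM in the controls and at 6.18 and 7.26 FPKM in deficient-labelled 1 and 3, with overlap. Oas2 and Oas3 stayed between 1.68 and 5.10 FPKM and overlapped too. Oas2, Oas3 and Oas1a share a stretch of chromosome 5 (120730333 to 120907544), as do Oasl2 and Oasl1 (114896926 to 114937911), so their values are those of 2 clusters. Oas1a has a close copy, Oas1g, at 1.41 and 3.68 FPKM in the controls and 4.73 and 4.89 FPKM in deficient-labelled 1 and 3. All 5 differences stayed above 0 under both other scalings and with any library but deficient-labelled 3 left out, when 4 of 5 did. With the epithelial marker level as a covariate 3 of 5 did.

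The ISG15 system and other regulators had no gene whose groups were apart. Ifi35, an adaptor that can damp RIG-I signalling, was at 62.9 and 60.8 FPKM in the controls and at 69.4 and 60.1 FPKM in deficient-labelled 1 and 3. Isg15, a ubiquitin-like modifier that is joined to proteins in the response, was at 31.6 and 19.9 FPKM in the controls and at 25.8 and 16.8 FPKM in deficient-labelled 1 and 3. Replicate 1 was the higher library of each genotype. Usp18 removes ISG15 from proteins and limits signalling from the type I receptor.

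Usp18 was at 6.83 and 3.58 FPKM in control 1 and 3 and at 13.3 and 5.32 FPKM in deficient-labelled 1 and 3. Its log2 difference of 0.67 was the second in size above 0, with an SE of 0.50, and deficient-labelled 3 lay below control 1. It was 0.08 without deficient-labelled 1, 1.26 without deficient-labelled 3, 1.05 without control 1 and 0.28 without control 3. With the epithelial marker level as a covariate it was 1.55 and passed (limma adjusted p = 0.0386), as did 157 of all 12009 genes in that fit. The fit leaves 1 residual degree of freedom. Its covariate runs partly with genotype, since all 23 epithelial marker genes had a log2 difference above 0, with a median of 1.37. Rtp4, a chaperone of membrane receptors, was at 32.5 and 25.6 FPKM in the controls and at 39.6 and 15.2 FPKM in deficient-labelled 1 and 3, again with the extremes in the deficient-labelled libraries. Trim25 (an activator of RIG-I), Xaf1 (a partner of apoptosis inhibitors) and Parp14 (an ADP-ribosyltransferase) lay between 7.75 and 22.4 FPKM with groups that overlapped.

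The interferon-inducible GTPases were the group with the highest sum, 464 and 383 FPKM in control 1 and 3 and 475 and 277 FPKM in deficient-labelled 1 and 3. These proteins gather on vacuoles that hold bacteria or parasites. Ifi47, also known as Irg47, was the highest gene of the whole list at 223 and 179 FPKM in the controls and 216 and 132 FPKM in deficient-labelled 1 and 3. Igtp, which encodes Irgm3, was at 62.5 and 57.5 FPKM in the controls and at 68.1 and 34.3 FPKM in deficient-labelled 1 and 3. Irgm1, a regulator of the other GTPases of this kind, was at 53.2 and 42.3 FPKM in the controls and at 60.2 and 36.7 FPKM in deficient-labelled 1 and 3.

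In each of the 7 GTPase genes deficient-labelled 3 was the lowest of the 4 libraries, and in 5 of them deficient-labelled 1 was the highest. Irgm2, close to Igtp on chromosome 11 (58199556 to 58222783), was the one GTPase whose groups did not overlap. It was at 27.0 and 19.3 FPKM in the controls and at 17.1 and 13.6 FPKM in deficient-labelled 1 and 3. Its log2 difference of −0.55 had an interval of −1.21 to 0.11 (limma adjusted p = 0.755). Gbp2, Gbp3 and Gbp7, guanylate-binding proteins from a stretch of chromosome 3 (142530336 to 142638008), lay between 16.8 and 41.6 FPKM and shared the order of Igtp. In 6 of the 7 genes the log2 difference was below 0. With the libraries scaled to T cell genes this held for 1 of 7, Irgm2, and for 5 of 7 relative to the shift of all genes. Without deficient-labelled 3, or with the epithelial covariate, the difference was above 0 in 6 of 7.

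**Figure D3:**
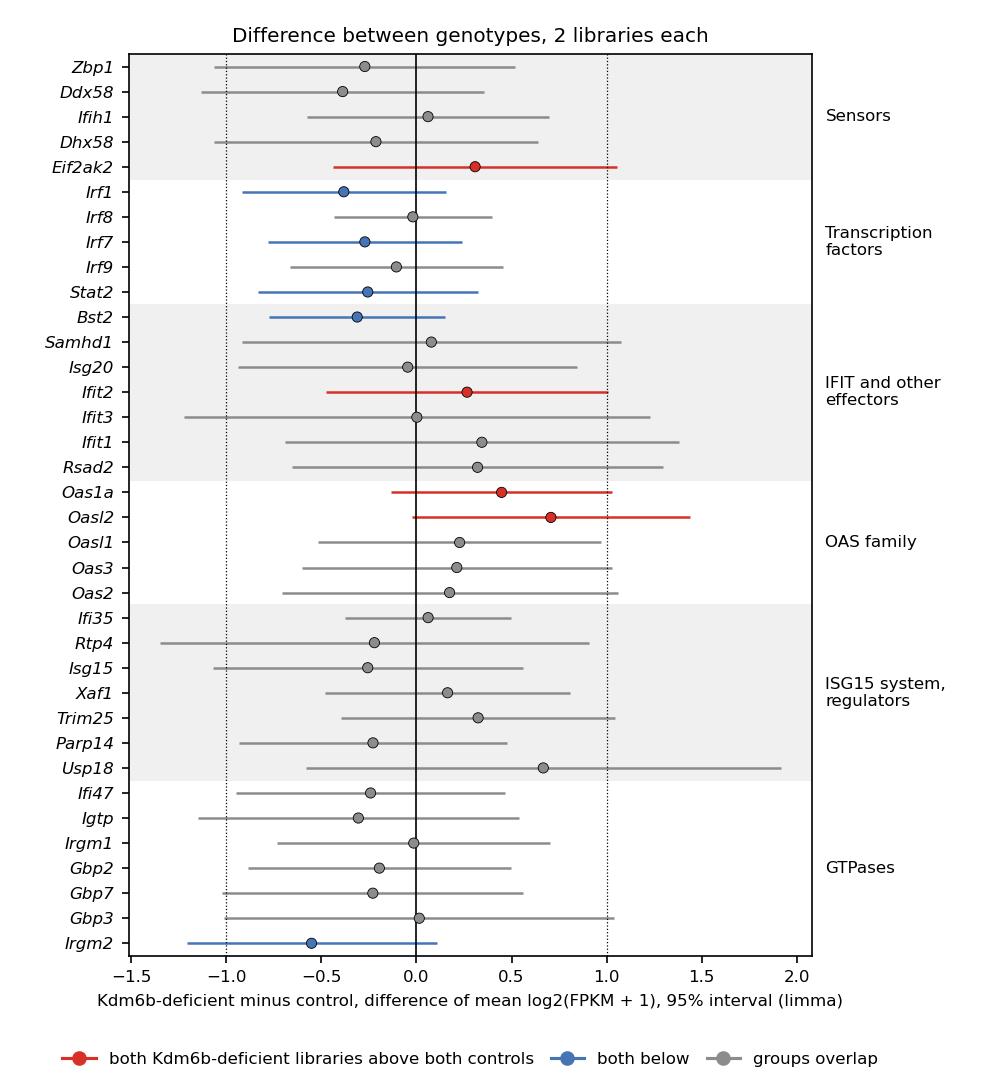
Difference between genotypes for the 36 interferon-stimulated genes that passed the filter, as deficient-labelled minus control mean log2(FPKM + 1), with 95% intervals from limma. Red marks genes with both deficient-labelled libraries above both controls, blue marks both below, grey marks overlap, dotted lines stand at −1 and 1, and every interval includes 0.

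The clearest pattern lay between the deficient-labelled libraries rather than between genotypes. Over the 36 genes the median log2 difference of deficient-labelled 3 from deficient-labelled 1 was −0.41, beside 0.01 over all genes. It was −0.42 over 12 marker genes of the sorted cell, such as Cd3e and Cd8a, and −0.49 over 5 T cell genes among them. Control 3 stood at −0.22 from control 1, beside −0.01 over all genes, −0.35 over the 12 marker genes and −0.26 over the 5. Deficient-labelled 1 was the highest library in 19 of 36 genes (52.8%, beside 20.2% of all genes and 8.33% of the 12 marker genes). Deficient-labelled 3 was the lowest in 23 of 36 (63.9%, beside 32.5% of all genes and 91.7% of the 12 marker genes). These counts were chosen after the values were seen and carry no test. The genotype difference followed the library that was kept. With deficient-labelled 1 left out, the median of the 36 genes was −0.40, and 23 of them lay below both controls and 8 above, beside 4733 and 4712 of all 12009 genes. With deficient-labelled 3 left out, the median was 0.17, and 6 genes lay below and 20 above, beside 3614 and 3903 of all genes. With control 3 left out the median was −0.17 with 12 genes below and 7 above, beside 4385 and 4578 of all genes. With control 1 left out it was 0.06 with 5 below and 9 above, beside 3435 and 3476 of all genes.

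In 12 of the 36 genes deficient-labelled 1 was the highest library and deficient-labelled 3 the lowest, as in 8.92% of all genes. They were Dhx58, Gbp2, Gbp3, Gbp7, Ifi35, Ifit3, Igtp, Irgm1, Isg20, Rtp4, Samhd1 and Xaf1. Ifng, which encodes interferon-γ, had the same extremes, at 23.3 and 13.5 FPKM in control 1 and 3 and at 51.2 and 4.53 FPKM in deficient-labelled 1 and 3. All of the 12 genes except Xaf1 shared the full order of Ifng over the 4 libraries. That is 30.6% of the 36 genes, beside 6.39% of all genes. Of all genes 1071 had the same extremes and 767 of these had the full order, so most genes with these extremes share it. The extremes and the order were chosen after the values were seen and carry no test. Any part of the Ifng level in the values of the listed genes was not tested.

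**Figure D4:**
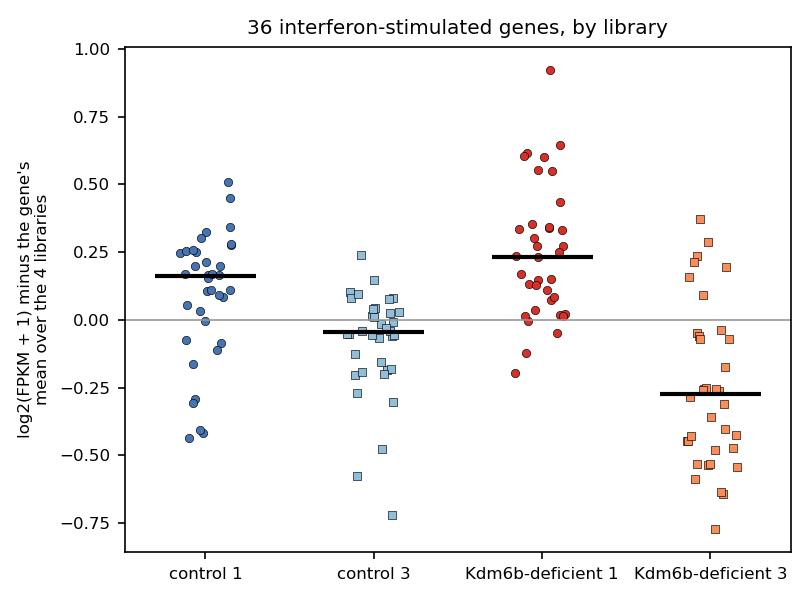
Each point is one of the 36 interferon-stimulated genes in a library, as its log2(FPKM + 1) minus its own mean over the 4 libraries, and the bars are medians. The medians were 0.16 in control 1, −0.05 in control 3, 0.23 in deficient-labelled 1 and −0.27 in deficient-labelled 3, and the points are spread sideways only to be seen.

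Marker genes of other cells also differed between the libraries. The 23 epithelial marker genes, such as Epcam and Krt8, summed to 1523 and 4776 FPKM in control 1 and 3 and to 4482 and 11737 FPKM in deficient-labelled 1 and 3. All 23 were lowest in control 1 and highest in deficient-labelled 3, and none was at 0. The 5 T cell genes Cd3d, Cd3e, Cd3g, Cd247 and Ptprc summed to 3547 and 2837 FPKM in the controls and to 2886 and 2058 FPKM in deficient-labelled 1 and 3, so that deficient-labelled 3 was the lowest library for them as for most interferon-stimulated genes. In such bulk samples fewer cells of a type and less RNA per cell cannot be told apart, and the part of the cell mixture in the levels of the listed genes was not tested.

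The 37 interferon-stimulated genes summed to 1286 and 1106 FPKM in the controls and to 1321 and 894 FPKM in deficient-labelled 1 and 3. Set against the summed T cell genes, this was 0.363 and 0.390 in the controls and 0.458 and 0.435 in deficient-labelled 1 and 3, so that both deficient-labelled libraries came out above both controls. Scaling the libraries to these 5 genes left 0 of the 36 genes with both deficient-labelled libraries below both controls and 20 with both above, while 292 genes of the whole table lay below and 4487 above. Relative to the shift of all genes the median of the 36 genes was 0.00, and without taking it off 35 of the 36 differences lay above 0.

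The 11 marker genes of myeloid and dendritic cells summed to 1785 and 1281 FPKM in the controls and to 2719 and 2370 FPKM in deficient-labelled 1 and 3. Among the 10 tested, 9 had a log2 difference above 0, with a median of 0.46. Cd74, the invariant chain of MHC class II and itself a target of interferon-γ, made up most of each sum, with 1308 and 939 FPKM in the controls and 2183 and 1637 FPKM in deficient-labelled 1 and 3. Myeloid cells are known to express many of the listed genes as well. Of the genes the sort excluded, Cd8b1 was at most 1.64 FPKM, and Cd4 was at 30.6 and 10.1 FPKM in the controls and 30.5 and 3.17 FPKM in deficient-labelled 1 and 3. In the B lineage list Jchain, a gene of plasma cells, was at 16.7 and 0.94 FPKM in the controls and 48.8 and 0.13 FPKM in deficient-labelled 1 and 3, the order of Ifng, while the B cell genes Ms4a1 and Pax5 stayed under 1 FPKM, Cd79a lay between 1.75 and 3.53 FPKM and Cd79b between 28.4 and 33.5 FPKM. The sort on CD45, TCRβ and CD8α should remove epithelial, myeloid, dendritic and plasma cells. The part of RNA from such cells in the levels of the listed genes was not tested.

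**Figure D5:**
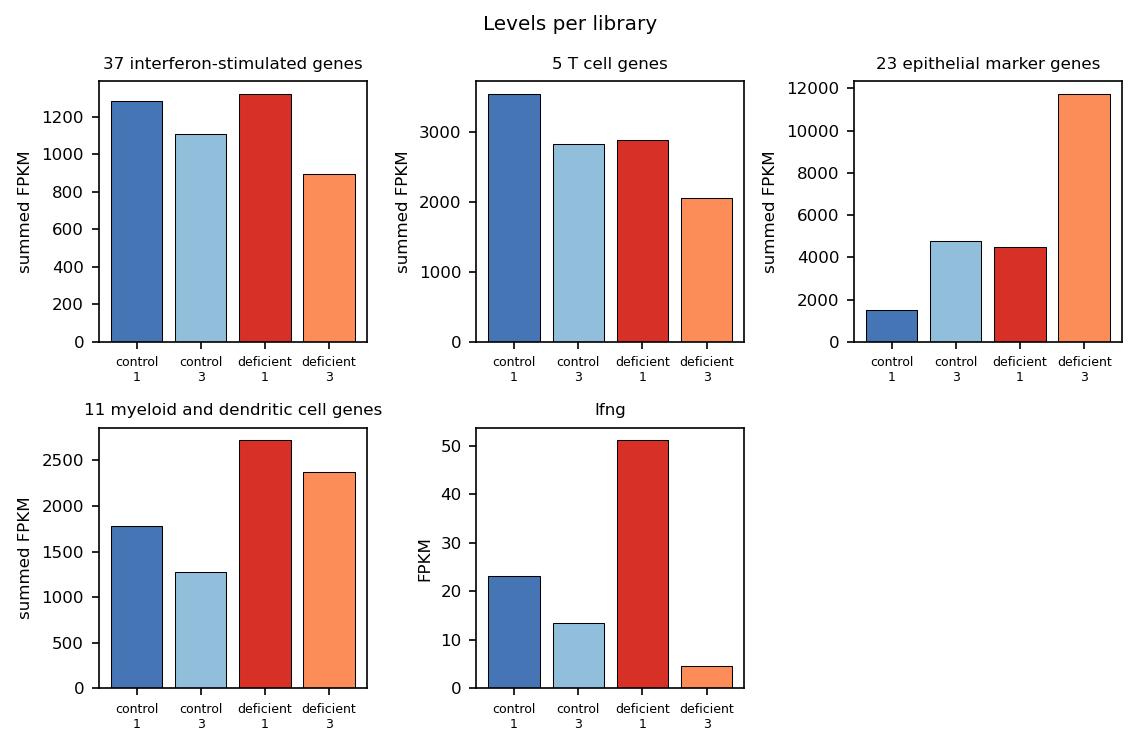
Bars from 0 give the summed FPKM per library of the 37 interferon-stimulated genes, 5 T cell genes, 23 epithelial marker genes and 11 myeloid and dendritic cell genes, and the FPKM of Ifng. Deficient-labelled 3 is lowest for the interferon-stimulated genes, the T cell genes and Ifng and highest for the epithelial genes, and both deficient-labelled bars exceed both control bars for the myeloid genes.

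The rest of the pathway was read from a wider list of 95 genes in the files, of which 83 were tested and 0 passed (limma, adjusted p under 0.05). Both deficient-labelled libraries were above both controls in 16 of the 83 and below in 12, beside 18.4% and 18.6% of all genes, and the median difference was −0.15. Of the 8 ligand genes, Ifng alone passed the filter, and each of the 7 type I interferon genes was listed at 0 in at least 3 libraries and reached no more than 0.56 FPKM. All receptors of interferon-γ and of type I interferon were expressed. Ifngr1 was at 637 and 452 FPKM in the controls and at 528 and 295 FPKM in deficient-labelled 1 and 3, far above Ifngr2, which was at 14.1 and 32.1 FPKM in the controls and at 25.2 and 46.2 FPKM in deficient-labelled 1 and 3.

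Ifnar1 was at 35.1 and 26.6 FPKM in the controls and at 29.4 and 18.9 FPKM in deficient-labelled 1 and 3, and Ifnar2 lay between 14.9 and 27.8 FPKM. Both overlapped between groups, as Ifngr1 and Ifngr2 did. In signalling, 8 of 9 genes had a log2 difference below 0, beside 5993 of all 12009 genes, with Jak2 at −0.38 (SE 0.52, groups overlapping) and Stat3 at −0.34 (SE 0.21). Scaling to T cell genes moved the median of all genes up by 0.38, and any part of that shift in these differences was not tested. Among the negative regulators Socs3, a feedback inhibitor of JAK kinases, was at 15.7 and 15.04 FPKM in the controls and at 21.6 and 19.0 FPKM in deficient-labelled 1 and 3 without overlap. Ptpn6, a phosphatase of lymphocyte signalling, stood at −0.35. In the list of sensing genes, Tlr3, an endosomal receptor for double-stranded RNA, differed by 0.58 and Tmem173, which encodes the adaptor STING, by −0.45.

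The further interferon-stimulated genes held the 3 differences above 1 of the wider list, 3 of 83 genes tested beside 744 of all 12009 genes, and none of the 83 was below −1, beside 53 of all genes. Ifitm2, which encodes a membrane protein that hinders viral entry, was at 73.8 and 124 FPKM in the controls and at 205 and 279.6 FPKM in deficient-labelled 1 and 3. The groups did not overlap and the log2 difference was 1.31 (SE 0.31, limma adjusted p = 0.755). Ifitm1 went from 2.24 and 2.93 FPKM in the controls to 9.72 and 5.01 FPKM in deficient-labelled 1 and 3, a difference of 1.17. Ifi205 differed by 1.01. Ifitm1 and Ifitm2 are also expressed outside T cells, and the part of the epithelial or myeloid RNA given above in their levels was not tested.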

How the data were processed

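Total RNA of sorted IELs was sequenced, 3 mice pooled per library. The authors used HISAT and Bowtie2 for mapping (mm10) and RSEM for the levels; the submitters' processing notes give Bowtie2 2.2.5 and RSEM 1.2.8. The deposited values are FPKM, normalized by the authors for gene length and library size, so that a change in composition moves every gene and no counting error could be computed. Genes were used at 1 FPKM or more in 2 libraries. Values were tested as log2(FPKM + 1) with limma 3.58.1 (R 4.3.3; lmFit, eBayes with trend, two-sided, Benjamini-Hochberg), called at adjusted p under 0.05. The SE and interval of a difference come from that fit, with 2 libraries a group. No source states that libraries are separate experiments, so p-values measure the spread between these pools.

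RefSeq tables of GRCm38.p6 gave symbols, coordinates and promoters; the submitters' notes name mm10 and GRCm38.p5, the same assembly at another patch. Of 18581 Entrez identifiers 18467 had a symbol. Promoters of Dhx58, Zbp1, Mx1, Mx2, Oas2, Usp18, Parp14 and Rtp4 were not used here. Members and lists were chosen with earlier results of these data known. Values in every library are given for the 3 highest genes of each role, every tested gene whose groups did not overlap and the 5 largest differences; outside the list, values or differences are given for Kdm6b, receptors of interferon-γ and type I interferon, Ifng, the leading genes of each pathway list and markers; genes withheld from this text are not reported here. The test was tried on simulated data. Alternatives were the pseudocount, the filter, scaling to the median of ratios or to T cell genes, eBayes without trend, a replicate block, an epithelial covariate and leaving out each library. Tables were handled with pandas 2.3.3 and drawn with matplotlib 3.10.9.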

Additional observations from a re-analysis of the deposited data

How the results depend on the processing

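With pseudocounts of 0.1 or 0.01, no filter, a filter of 5 FPKM, median-of-ratios scaling or eBayes without trend, the counts of 0 called, 5 lower and 4 higher genes stayed within 1.5 times, and the median stayed between −0.11 and −0.01. The genes of the whole table past 1 in either direction rose from 797 to 1381 and 1451 at those pseudocounts, and the 36 genes stayed at 0. Scaling to T cell genes gave 0 lower and 20 higher genes, since it moved the median of all genes up by 0.38; without taking that shift off, 5 genes below 0 by more than their SE (Bst2, Ddx58, Irf1, Irf7 and Stat2) turned above 0. The epithelial marker covariate leaves 1 residual degree of freedom and runs partly with genotype. It gave a median of 0.21 over the 36 genes and called 157 genes in all. Among the 36 it called 1 gene, Usp18, at 1.55 (limma adjusted p = 0.0386), which was also the 1 gene past the limit of 1. Ddx58 turned to 0.0497 from −0.39. With the replicate block 0 of the 36 genes were called (smallest limma adjusted p 0.111, Irgm2; 4 at an unadjusted p under 0.05, beside 2736 of all 12009 genes), while 1019 genes were called in the whole table instead of 0. The groups share only numbers: deviations of same-numbered libraries correlated at 0.56 across all genes and at 0.28 across the 36 genes, and no label says what the numbers mark.

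Leaving out one library gave 5 to 23 lower genes, 7 to 20 higher genes, 0 to 1 genes past 1, medians of −0.40 to 0.17 and 0 called genes in each fit; the lone library is then assumed to vary like the other group. Of 463 values of single genes under alternatives, 461 kept their side of the threshold, and their direction where the difference exceeded its SE. The other 2 are Usp18 and Ddx58 with the epithelial covariate, and the T cell scaling is taken relative to its shift. No gene passed in the main fit, and a change of sign within the SE is not counted here. Signs changed in 16 of the 36 genes with the epithelial covariate, in 13 without deficient-labelled 3 and in 7 without deficient-labelled 1. They changed in 5 without control 1, 4 without control 3, 3 with the T cell scaling and 0 or 1 under each other alternative. The cause of these shifts was not tested. With 2 pools a group and total depth unknown, the largest difference of the 36 genes in the main fit, 0.71, did not pass the test.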
